A study of Mus musculus with 17 samples.

Results

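The 7 mRNAs described here, mt-Nd1, mt-Nd2, mt-Nd3, mt-Nd4l, mt-Nd4, mt-Nd5 and mt-Nd6, are the complex I mRNAs made from mitochondrial DNA. They were chosen by name, and not by a threshold on their values, though with earlier results of these data known, from 49585 genes quantified in mouse plasma cell-free RNA (cfRNA). Plasma came from wild type C57BL/6J mice aged 13 weeks in 3 groups: 6 libraries from mice kept in microgravity on the space station (MG), 6 from mice under artificial 1-G gravity on the same station (AG) and 5 from ground controls (GC). MG and AG shared the flight and differed by the rotating platform that gave AG its gravity, whereas GC stayed on the ground. By the design of the study a library stands for 1 mouse; the labels do not say so, and the p-values below measure the spread between libraries.

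Complex I, NADH:ubiquinone oxidoreductase, is the entry point of electrons from NADH into the respiratory chain and pumps protons across the inner mitochondrial membrane. Its membrane arm is built around the proteins of the mt-Nd genes, while its other subunits come from nuclear genes. Mitochondrial DNA is transcribed as long polycistronic RNAs from both strands, from which the mRNAs are released, in most places by removal of the tRNAs between them. Of the 7 mRNAs, mt-Nd6 is the one carried by the transcript of the opposite strand.

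By GENCODE M21 annotation of GRCm38 (mm10), the members on the plus strand of mitochondrial DNA are mt-Nd1 (chrM:2751-3707), mt-Nd2 (chrM:3914-4951), mt-Nd3 (chrM:9459-9806), mt-Nd4l (chrM:9877-10173), mt-Nd4 (chrM:10167-11544) and mt-Nd5 (chrM:11742-13565). mt-Nd6 lies on the minus strand (chrM:13552-14070). All 7 are single-exon, protein-coding genes, and their transcripts run from 297 bases in mt-Nd4l to 1824 bases in mt-Nd5. mt-Nd4l and mt-Nd4 overlap by 7 bases on the same strand, with no tRNA gene between them, so that a read over the junction can be counted for either gene. Each was counted as a gene of its own, and whether their reads came from a shared RNA was not tested. mt-Nd5 and mt-Nd6 overlap by 14 bases at their 3′ ends on opposite strands. The strand setting of the authors' counting is not given in the sources used here, and reads in that overlap cannot be assigned to 1 of the genes without it. The limit holds for the whole length of mt-Nd6, whose count can include reads of the plus-strand transcript if strand was ignored. Both overlaps are shown here 5′ to 3′ in the direction of each mRNA, with the shared bases, or the bases complementary to the other mRNA, in capitals.
mt-Nd4l end: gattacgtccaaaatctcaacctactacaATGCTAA
mt-Nd4 start: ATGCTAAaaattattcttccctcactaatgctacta
mt-Nd5 end: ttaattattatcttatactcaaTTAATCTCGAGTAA
mt-Nd6 end: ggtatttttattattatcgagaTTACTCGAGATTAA

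The base composition of mt-Nd6 sets it apart from the 6 plus-strand members. Its mRNA held 28.1% G and 5.97% C, against at most 11.6% G and at least 22.1% C in the other members. The first 60 bases of mt-Nd5 (chrM:11742-11801, plus strand) and of mt-Nd6 (chrM:14011-14070, minus strand) show the difference, with G in capitals. There is no G in this stretch of mt-Nd5.
mt-Nd5 start: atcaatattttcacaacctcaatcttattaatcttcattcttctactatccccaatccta
mt-Nd6 start: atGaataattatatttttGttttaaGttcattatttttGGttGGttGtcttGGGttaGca

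Short reads from some members can also match copies of mitochondrial DNA in the nuclear genome. Sequencing used reads of 36 bases, and every window of 36 bases of each member was compared with the annotated nuclear transcripts of GENCODE M21. For mt-Nd1, 0 of 922 windows had an exact nuclear copy, and for mt-Nd6 13 of 484 did (2.69%). The share was 11.1% for mt-Nd2, and 250 of 1789 windows of mt-Nd5 had one. It was 62.6% for mt-Nd4, 98.1% for mt-Nd3 and 98.9% for mt-Nd4l, each of which has a pseudogene on the minus strand of chromosome 1. The mt-Nd3 copy, Gm28438 (chr1:24612775-24613119), matched mt-Nd3 over 345 bases with 1 mismatch, T3C, counted from 1 at the mt-Nd3 5′ end with the base of mt-Nd3 first. The mismatch is in capitals in the first 40 bases of both.
mt-Nd3: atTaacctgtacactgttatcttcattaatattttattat
Gm28438: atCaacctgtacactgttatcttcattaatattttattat

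The mt-Nd4l copy, Gm10222 (chr1:24612407-24612700), was identical over its 294 bases, and the mt-Nd4 copy, Gm28439 (chr1:24611535-24612410), over its 876 bases. These 3 pseudogenes were listed at a count of 0 but had RPKM values (reads scaled by gene length and by all mapped reads) above 0 that gave back 1, 4 and 7 whole reads over all 17 libraries, against 152, 203 and 1090 reads for mt-Nd3, mt-Nd4l and mt-Nd4. How reads with several matches were counted is not given in the sources used here.

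All 7 mRNAs were detected, and their reads were few. Together they had 4401 reads, from 99 in MG replicate 4 to 628 in MG replicate 1. MG replicate 4 also had the most mapped reads implied by RPKM, 9796884, where the other libraries lay between 1596032 and 6859728. mt-Nd5 held 35.7% of these reads, mt-Nd4 24.8%, mt-Nd6 14.3%, mt-Nd1 9.41%, mt-Nd2 7.77%, mt-Nd4l 4.61% and mt-Nd3 3.45%. The total count of a library was between 84657 and 277682, of which 70.6% to 91.7% fell on 4 genes (Lars2, Polr2m, Rn18s-rs5 and Tmem38b). mt-Nd3 was the only member with a library at 0, MG replicate 4, where 0 of 116902 counts allows a share of up to 0.00257%. This limit, which stands for 3 counts, and the intervals below cover counting error only.

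The share of all counts held by the 7 mRNAs averaged 0.175% ± 0.0490 for GC (SD, n = 5), 0.0824% ± 0.0405 for AG (SD, n = 6) and 0.283% ± 0.185 for MG (SD, n = 6). MG had the widest range, from 0.0847% in replicate 4 (95% Wilson interval 0.0696% to 0.103%) to 0.552% in replicate 1 (0.511% to 0.597%). With the 4 most abundant genes left out of the denominator, the mean shares became 0.853% ± 0.191 for GC, 0.790% ± 0.302 for AG and 1.18% ± 0.676 for MG, and the difference between MG and AG was smaller than the SD of MG. The counts are not all mapped reads, since genes such as the mitochondrial rRNAs were listed at a count of 0. Over all mapped reads the mean shares were 0.00775% for GC, 0.00398% for AG and 0.0103% for MG. In this bulk measurement, fewer cells that release RNA and less RNA per cell cannot be told apart.

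**Figure D1:**
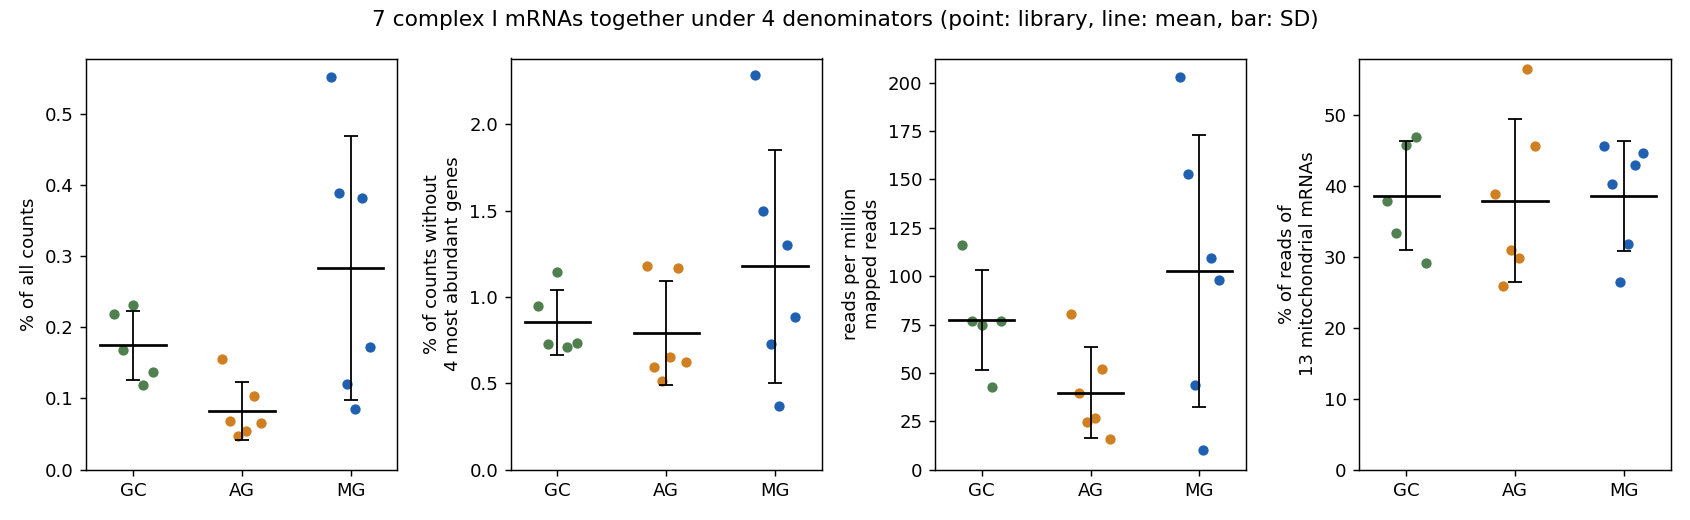
Reads of the 7 complex I mRNAs in each library (points) with the mean (line) and SD (bar) of GC (n = 5), AG (n = 6) and MG (n = 6), as a percentage of all counts, as a percentage of counts without the 4 most abundant genes, as a rate over all mapped reads, and as a percentage of reads of the 13 mitochondrial mRNAs. The group means differ in the first panel (0.283% in MG against 0.0824% in AG) and lie between 37.9% and 38.6% in the last.

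Measured against the other mRNAs of the same chromosome, the complex I mRNAs took nearly the same mean share in each group. They held 38.6% ± 7.74 of the reads of all 13 mitochondrial mRNAs in MG, 37.9% ± 11.5 in AG and 38.6% ± 7.71 in GC, although they make up 55.8% of the length of these mRNAs. Single libraries ran from 25.9% to 56.4%. The other 6, mt-Co1, mt-Co2, mt-Co3, mt-Atp6, mt-Atp8 and mt-Cytb, which encode parts of complexes III, IV and V, had 6988 reads. The highest share, 56.4%, was that of AG replicate 5, which also had the fewest reads from mitochondrial genes, 3637.

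All 13 mRNAs were a small part of the RNA from the mitochondrial chromosome. The 2 ribosomal RNAs, mt-Rnr1 and mt-Rnr2, whose reads were recovered from the deposited RPKM values, held between 87.8% and 95.4% of mitochondrial reads in each library. The 7 complex I mRNAs held between 0.212% and 3.27%. The tRNA genes next to the members were uneven. mt-Ts2, between mt-Nd4 and mt-Nd5, had 18878 reads from 59 bases and a median RPKM of 5327, while mt-Nd4 and mt-Nd5 had median RPKM values of 15.3 and 13.2. mt-Tl2, which adjoins mt-Nd5, had 41 reads, and mt-Te, which adjoins the 5′ end of mt-Nd6, had 2373.

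To compare the members with one another, reads were divided by transcript length. Over all libraries mt-Nd6 had the highest level, 1210 reads per kilobase, followed by mt-Nd5 (862), mt-Nd4 (791), mt-Nd4l (684), mt-Nd3 (437), mt-Nd1 (433) and mt-Nd2 (329). Within libraries the order was less fixed. mt-Nd6 was the highest of the 7 per kilobase in 11 of 17 libraries, mt-Nd4 in 3, mt-Nd4l in 2 and mt-Nd1 in 1. mt-Nd2 was the lowest in 9 libraries and mt-Nd3 in 5, and mt-Nd5 was never the highest nor below rank 4.

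Some neighbours in this order could not be separated by the libraries. mt-Nd3 was above mt-Nd1 per kilobase in 8 libraries and below it in 9, and mt-Nd5 was above mt-Nd4 in 10 and below it in 7. The lower and upper parts of the order were held apart more often. mt-Nd5 was above mt-Nd2 in 17 of 17 libraries and above mt-Nd1 in 16, and mt-Nd4 was above mt-Nd3 in 17. mt-Nd1 was above mt-Nd2, its neighbour on the chromosome, in 15 libraries.

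In most libraries, plus-strand members further along the chromosome had higher levels. The Spearman correlation of reads per kilobase with gene order over these 6 genes was above 0 in 16 of 17 libraries, with a median of 0.77 and a range from −0.03 in MG replicate 6 to 0.94. It describes 6 genes that share a transcript and a library, and no p-value was attached to it. Over all 13 mRNAs the median was 0.09 and the range −0.43 to 0.47, with 10 of 17 libraries above 0. mt-Co2, between mt-Nd2 and mt-Nd3, had 2904 reads per kilobase over all libraries.

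**Figure D2:**
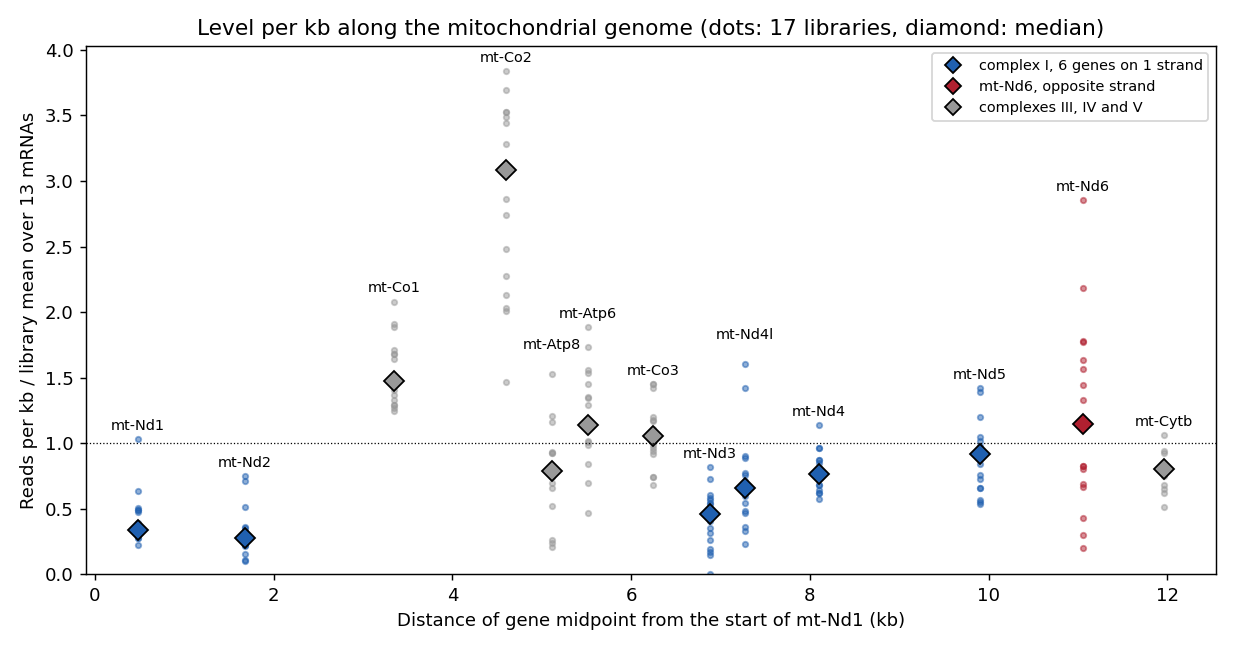
Reads per kilobase of each of the 13 mitochondrial mRNAs, divided by the mean over the 13 in the same library, against the distance of the gene midpoint from the start of mt-Nd1 in kilobases. Dots are the 17 libraries and diamonds their medians, which within complex I go from 0.34 for mt-Nd1 and 0.28 for mt-Nd2 to 0.92 for mt-Nd5, with mt-Nd6, on the opposite strand, at 1.15 and spread from 0.20 to 2.85.

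Whether this order differed between groups was tested with the ratio of reads per kilobase of mt-Nd1 and mt-Nd2 together to those of mt-Nd4l, mt-Nd4 and mt-Nd5 together, with 0.5 reads added to each sum. The log2 ratio averaged −1.09 ± 0.45 for GC (SD, n = 5), −1.47 ± 0.42 for AG (SD, n = 6) and −1.08 ± 0.62 for MG (SD, n = 6). It was below 0 in 16 of 17 libraries, the exception being MG replicate 6 at 0.08. No pair of groups differed beyond its spread in two-sided exact permutation tests: p was 0.253 for MG against AG, 0.970 for MG against GC and 0.186 for AG against GC, and the Benjamini-Hochberg adjusted values over the 6 ratio tests made were 0.528, 0.970 and 0.528. The smallest p these tests could give was 0.00216 for MG against AG and 0.00433 for the other pairs.

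mt-Nd6, the member of the opposite strand, was the most variable. Its reads ranged from 3 to 133 per library in MG, with a median of 45, from 9 to 35 in AG, and were 40, 28, 42, 38 and 33 in the GC libraries. The log2 ratio of its reads per kilobase to those of the 6 other members together averaged 0.96 ± 0.50 for GC (SD, n = 5), 0.72 ± 0.81 for AG (SD, n = 6) and 0.36 ± 1.05 for MG (SD, n = 6). It was above 0 in 13 of 17 libraries, including all 5 GC libraries, and lay between −1.29 in MG replicate 4 and 1.81 in AG replicate 5. The groups overlapped, and the two-sided exact permutation tests gave p = 0.515 for MG against AG, 0.264 for MG against GC and 0.623 for AG against GC (adjusted 0.748, 0.528 and 0.748). The ratio differed among libraries of 1 group by more than the group means differed, and no difference between groups was detected. As the strand setting of the counting is not given, the ratio cannot be read as one between the transcripts of the strands.

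**Figure D3:**
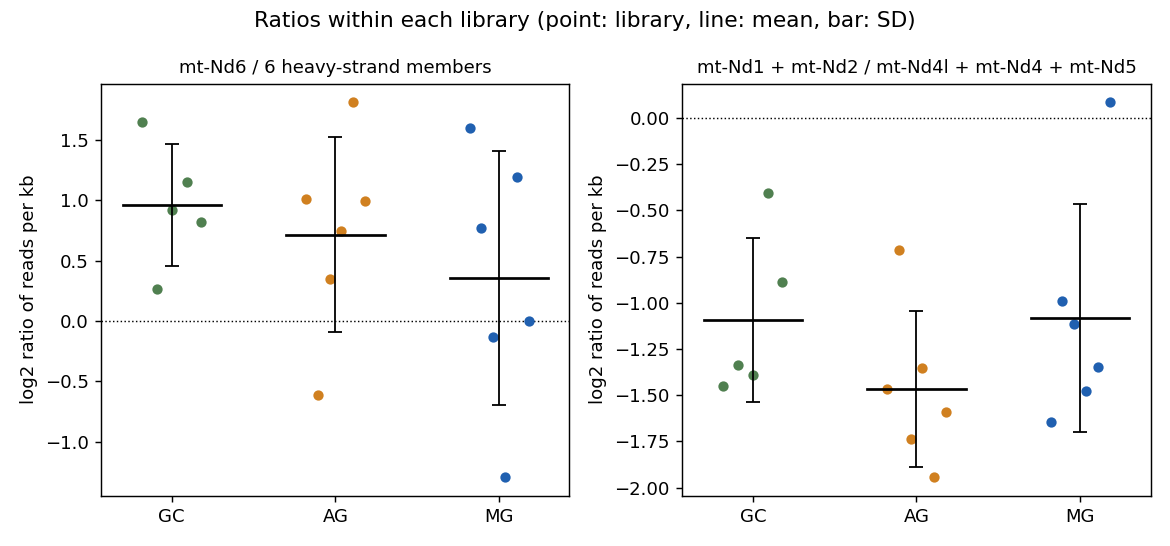
Log2 ratios of reads per kilobase within each library, for mt-Nd6 over the 6 plus-strand members (left) and for mt-Nd1 with mt-Nd2 over mt-Nd4l, mt-Nd4 and mt-Nd5 (right). Points are libraries, lines means and bars SDs of GC (n = 5), AG (n = 6) and MG (n = 6); the groups overlap in both panels.

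Differences between groups were tested for each gene with edgeR's quasi-likelihood test on counts scaled by the trimmed mean of M-values (TMM), with all 17 libraries in one fit over the 272 genes that passed its expression filter. All 7 members passed. A gene was called at a Benjamini-Hochberg adjusted p under 0.05, and the looser criterion of the study, unadjusted p under 0.05 with a fold change over 1.5, was counted too. The MG libraries enter both comparisons with MG, which are therefore not independent of each other.

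The question of MG against AG is what gravity changed within the flight. All 7 complex I mRNAs had a higher fitted level in MG, and 0 of 7 were called at an adjusted p under 0.05, as were 0% of all tested genes. mt-Nd1, the membrane subunit next to the ubiquinone site, and mt-Nd4l, a small membrane subunit, passed the looser criterion, 2 of 7 members against 13.2% of all tested genes, or 4.78% in the same direction. The median log2 fold change of the 7 was 0.75, beside 0.57 for the other 6 mitochondrial mRNAs and 0.17 for all tested genes, with 176 of 272 genes higher in MG.

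TMM-normalized CPM, in which each count is set against the adjusted total of its library, shows what these differences rest on. mt-Nd1 had 57.7 CPM in the lowest AG library, a median of 88.6 and 140 in the highest. In MG it had 105, 208 and 586 CPM in the same order, and in the GC libraries 102, 85.3, 74.5, 251 and 113 CPM. MG was above AG in 35 of 36 pairs of libraries, and none of the 7 members had groups that did not overlap, beside 1.84% of all tested genes. As reads over library totals, with no TMM factor, mt-Nd1 was higher in MG in 36 of 36 pairs, beside 3.31% of all tested genes with groups that did not overlap, and by deposited RPKM in 31 of 36. In TMM-normalized CPM, MG replicate 6, at 586, was far above the other MG libraries. That library had the lowest TMM factor of MG, 0.577, and over library totals it had 327 CPM, below MG replicate 2 at 414 and MG replicate 5 at 371. The log2 fold change of mt-Nd1 in MG against AG was 1.47 (SE 0.44, a fold of 2.76; adjusted p = 0.106 by edgeR's quasi-likelihood test). Without MG replicate 6 it was 1.03.

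mt-Nd4l had 18.1 CPM in the lowest AG library, a median of 36.8 and 141 in the highest. In MG it ran from 91.2 through a median of 116 to 140 CPM, the narrowest MG group of the 7 members relative to its mean, and in the GC libraries it was 51.1, 55.6, 62.1, 80.3 and 45.9 CPM. AG replicate 5, at 141 CPM from 9 reads, was level with the highest MG library, and the other AG libraries, at 61.2 or less, were all below MG. The log2 fold change in MG against AG was 1.20 (SE 0.44; edgeR adjusted p = 0.217) and 1.67 without AG replicate 5.

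The 5 other members had smaller or less precise differences. mt-Nd4, a proton-pumping subunit, had 219 to 533 CPM in AG (median 274) and 276 to 810 in MG (median 509), with a log2 fold change of 0.75 (SE 0.37; edgeR adjusted p = 0.372). mt-Nd5, the subunit at the far end of the membrane arm, had 257 to 822 CPM in AG (median 511) and 276 to 1169 in MG (median 842). Its log2 fold change was 0.50 (SE 0.43, edgeR adjusted p = 0.684) and 0.28 without MG replicate 1. The ranges of AG and MG overlapped for both genes, with MG higher in 30 of 36 pairs of libraries for mt-Nd4 and in 26 for mt-Nd5. The upper end of AG for mt-Nd4 was replicate 1, with the next AG library at 326 CPM. The log2 fold change of mt-Nd4 was 0.97 without AG replicate 1 and 0.54 without MG replicate 1. For mt-Nd2, another proton-pumping subunit, with 34.6 to 148.6 CPM in AG and 24.3 to 441 in MG, the log2 fold change was 0.96 (SE 0.57; edgeR adjusted p = 0.497) and 0.40 without MG replicate 6. For mt-Nd6, a membrane subunit with 40.6 to 438 CPM in AG and 24.3 to 691 in MG, it was 0.59 (SE 0.62; edgeR adjusted p = 0.777) and 0.10 without MG replicate 1. For mt-Nd3, a small membrane subunit with 26.2 to 54.8 CPM in AG and 0 to 120 in MG, it was 0.58 (SE 0.58, edgeR adjusted p = 0.762) and 0.34 without MG replicate 6. For these 3 genes MG spread to both sides of the AG range.

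These counts turned on the scaling. With library totals alone and no TMM factor, 6 of 7 members were called in MG against AG, mt-Nd3 being the exception at an edgeR adjusted p of 0.0666, but 58 of all 272 genes were called as well and the median of all tested genes moved to 1.27 on the log2 scale, beside 1.84 for the members; 132 of 132 genes past the looser criterion were then higher in MG, against 13 of 36 with TMM. Scaled instead to the 13 mitochondrial mRNAs, a set that holds the 7 members and so centres them near 0, mt-Nd3, mt-Nd5 and mt-Nd6 were lower in MG than in AG, by log2 fold changes of −0.27, −0.18 and −0.18, and the other 4 stayed higher, while the median of all tested genes was −0.33. With DESeq2, 1 member was called, mt-Nd1 at a log2 fold change of 1.51 (DESeq2 adjusted p = 0.0273), beside 9 of all tested genes. Leaving out MG replicate 4 also brought mt-Nd1 to an edgeR adjusted p of 0.0479, with 10 of all tested genes called beside 0 in the full fit. Leaving out MG replicate 3 or 4 raised the members past the looser criterion from 2 to 4, while 39 and 44 of all tested genes passed it, beside 36 with all libraries.

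Some markers of blood cells differed between the same groups at the looser criterion. The 8 red-cell markers summed to 10005 to 25141 CPM in AG and to 2865 to 18989 CPM in MG, with none at 0 over all libraries. Of these, 4 of the 7 tested (Bpgm, Hbb-bt, Slc4a1 and Alas2) passed the looser criterion with lower levels in MG, beside 23 of all 272 tested genes. The 7 platelet markers summed to 266 to 2497 CPM in AG and 1019 to 2927 CPM in MG. Among them 1 of 6 tested, Pf4, passed the looser criterion with a higher level in MG, beside 13 of all 272 tested genes. The summed levels of leukocyte markers (94.8 to 287 CPM in AG, 98.8 to 260 in MG), liver markers (0 to 2832 and 9.61 to 3514) and muscle markers (0 to 262 and 0 to 154) overlapped. The 4 most abundant genes held 86.9% to 91.7% of counts in AG and 70.6% to 83.5% in MG. The part of these in the levels of the complex I mRNAs was not tested.

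**Figure D4:**
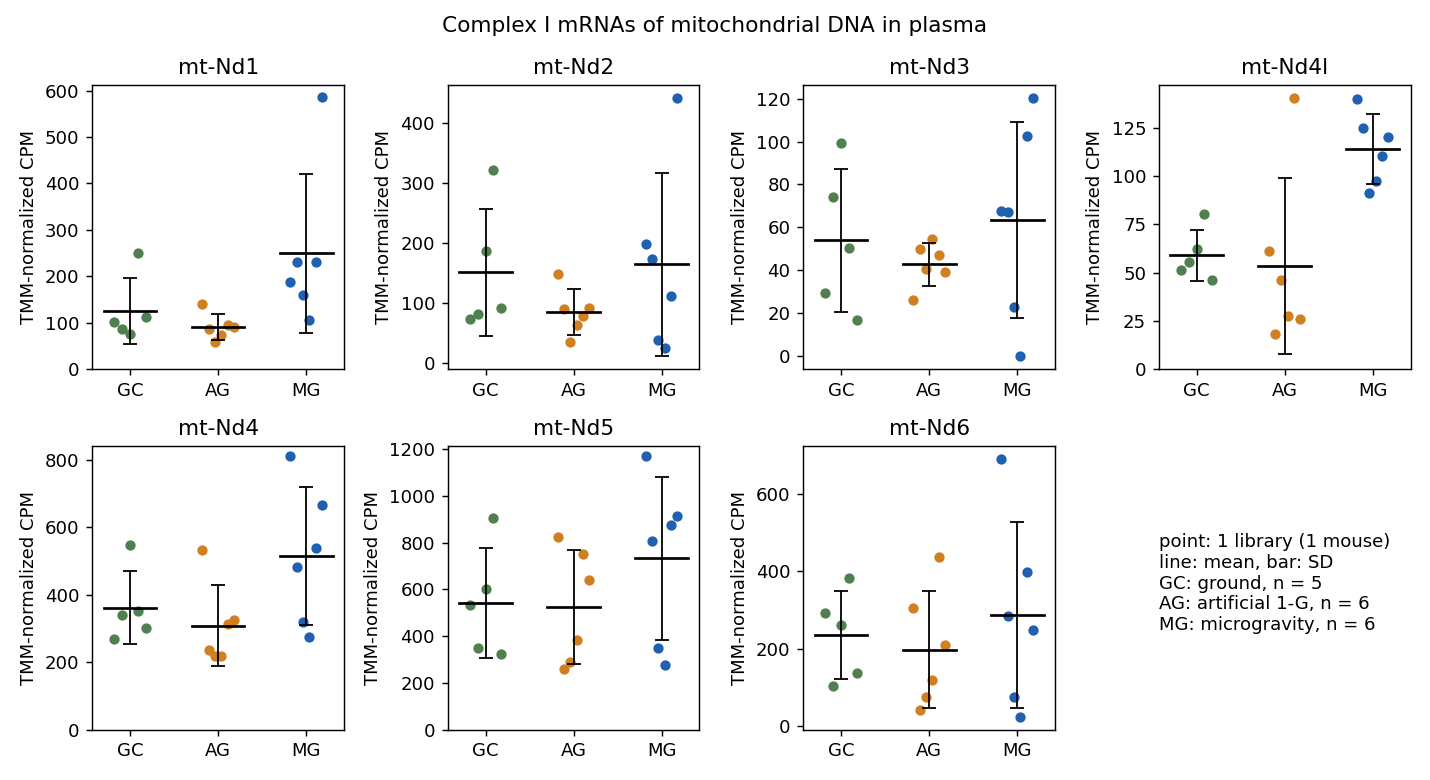
TMM-normalized CPM of the 7 complex I mRNAs in each library (points), with the mean (line) and SD (bar) of GC (n = 5), AG (n = 6) and MG (n = 6). For mt-Nd4l the 6 MG libraries, from 91.2 to 140 CPM, lie above all 5 GC libraries, which they overlap over library totals and by RPKM, and for mt-Nd1 MG replicate 6, with a TMM factor of 0.577, stands at 586 CPM.

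MG against GC asks what the flight without artificial gravity changed. The 7 members had log2 fold changes between 0.15 (mt-Nd2) and 1.02 (mt-Nd1) with a median of 0.44, beside −0.0034 for all tested genes and 0.41 for the other 6 mitochondrial mRNAs. None of the 7 was called by edgeR's quasi-likelihood or exact test, DESeq2 or limma, as for 0% of all tested genes in the quasi-likelihood test, where the adjusted p of the members lay between 0.969 and 0.994. At an unadjusted p under 0.05 there were 2 members, mt-Nd1 and mt-Nd4l, which also passed the looser criterion, against 4.41% of all tested genes, or 3.68% higher in MG.

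mt-Nd4l was the single tested gene whose MG and GC libraries did not overlap in TMM-normalized CPM. Its 6 MG libraries, 91.2 CPM and above, were above its 5 GC libraries, 80.3 CPM and below, in 30 of 30 pairs, whereas 0.368% of all tested genes, 1 of 272, had groups that did not overlap. With other scalings the groups did overlap. Over library totals with no TMM factor, MG was higher in 27 of 30 pairs, since MG replicate 6, at 67.2 CPM, lay below GC replicates 1, 2 and 3 (82.7, 85.5 and 78.2). By deposited RPKM it was higher in 21 of 30 pairs, and MG replicate 4, at 4.12, was below all 5 GC libraries (4.95 to 14.8). The log2 fold change in the TMM-scaled fit was 0.97 (SE 0.44; edgeR adjusted p = 0.969), from 7 to 15 reads per GC library and 12 to 27 per MG library. mt-Nd1 had a log2 fold change of 1.02 (SE 0.45; edgeR adjusted p = 0.969), was higher in MG in 24 of 30 pairs, and had a log2 fold change of 0.58 without MG replicate 6 and 1.40 without GC replicate 4.

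Neither gene passed the looser criterion in every setting. The count of members past it was 0 without MG replicate 6 or without GC replicate 1, 2, 3 or 5, and 1 without MG replicate 1 or 2. It was also 0 with the replicate number as a block in the fit. The fitted log2 fold change of mt-Nd4l stayed between 0.90 and 1.11 with each library left out in turn. With limma on log2(RPKM + 1) the count of members past the looser criterion was 0. In that fit mt-Nd2, mt-Nd3 and mt-Nd6 were lower in MG than in GC, by log2 fold changes of −0.27, −0.13 and −0.38, with a median of −0.22 for all tested genes. Scaled to the 13 mitochondrial mRNAs, mt-Nd2, mt-Nd3, mt-Nd5 and mt-Nd6 were lower in MG, with a median of −0.02 for the members, which are part of the scaling set, and −0.32 for all tested genes. With TMM scaling kept, mt-Nd2 was also lower in MG without MG replicate 6 (−0.41) or GC replicate 2 (−0.01), and mt-Nd6 without MG replicate 1 (−0.15). With the replicate block, mt-Nd2 was at −0.41 and mt-Nd6 at −0.0766. Of the red-cell markers, 1 of 7 tested, Hbb-bt, passed the looser criterion with a lower level in MG, beside 2 of all 272 tested genes. The sum of the red-cell list was 6198 to 18741 CPM in GC. The liver marker Alb had a log2 fold change of 4.27 in MG against GC (edgeR adjusted p = 0.604). The sum of the 8 liver markers was 62.6 to 161 CPM in GC, and in MG its median was 241 CPM and 1 library stood at 3514. The part of either in the members' levels was not tested.

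AG against GC compares flight with artificial gravity and the ground. All 7 members had lower fitted levels in AG, with log2 fold changes from −0.81 (mt-Nd2) to −0.05 (mt-Nd5) and a median of −0.27, near the −0.21 of all tested genes. None of the 7 was called by any of the same tools, beside 1.47% of all tested genes in the quasi-likelihood test, and 0 were at an unadjusted p under 0.05. None passed the looser criterion, beside 11.8% of all tested genes (6.25% higher in AG). The edgeR adjusted p of the members lay between 0.601 and 0.951, and in each of the 7 the groups overlapped in TMM-normalized CPM, whereas in 1.84% of all tested genes they did not. Over library totals mt-Nd2 was lower in AG in every pair of libraries, as 1 of the 3.31% of tested genes whose groups did not overlap on that scale. The fitted difference of mt-Nd5 changed sign under several settings, for example to 0.19 without GC replicate 4 and 0.16 when scaled to the 13 mitochondrial mRNAs. With no TMM factor the median of all tested genes was −1.14, and 3 of 7 members passed the looser criterion with lower levels in AG, as did 109 of the 272 tested genes. The 4 most abundant genes held 76.9% to 83.1% of counts in GC, less than in any AG library. Of the red-cell markers, Bpgm was higher in AG (log2 fold change 1.85, edgeR adjusted p = 0.0335), and the liver marker Alb passed the looser criterion with a log2 fold change of 3.43 (edgeR adjusted p = 0.366). The sum of the liver markers had a median of 69.7 CPM in AG and 70.4 in GC, and 1 AG library stood at 2832. The part of either was not tested.

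**Figure D5:**
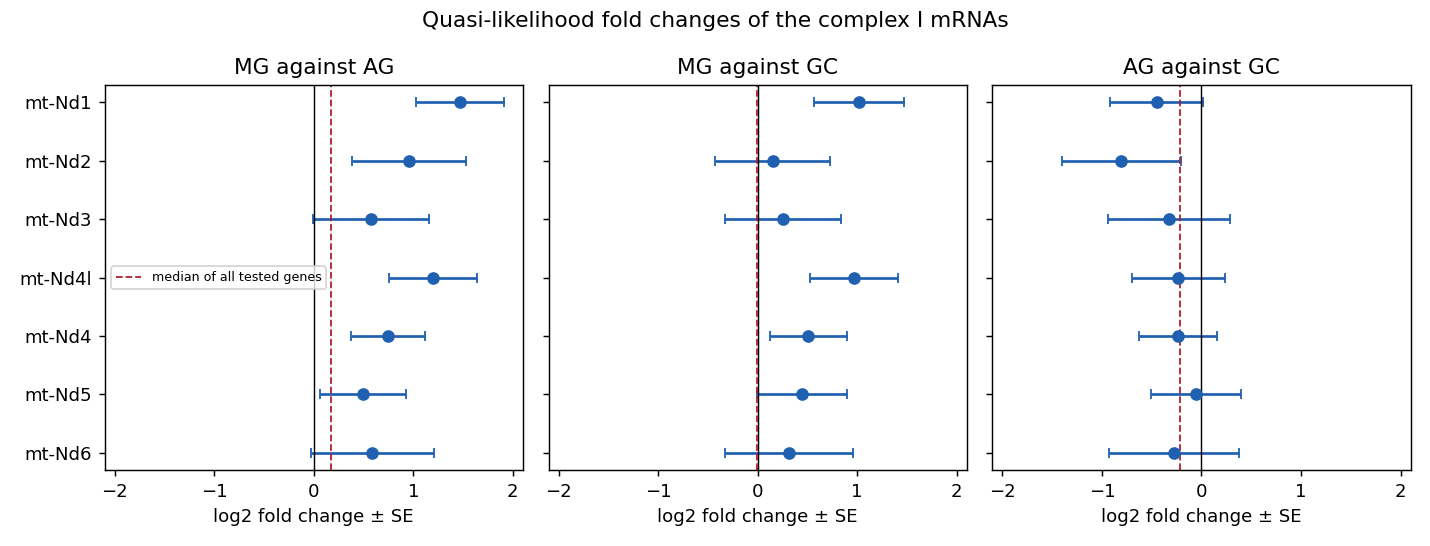
Log2 fold changes (points) and standard errors (bars) of the 7 complex I mRNAs in MG against AG, MG against GC and AG against GC, from edgeR's quasi-likelihood fit with TMM scaling. The red dashed line is the median of the 272 tested genes, 0.17, −0.0034 and −0.21; all members lie above 0 in the first 2 panels and below 0 in the last, which does not hold under every scaling or with every library left out.

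The members differed in how tightly they followed one another over the 17 libraries. They also differed in reads, from a median of 6 per library for mt-Nd3 to 77 for mt-Nd5. The part of counting error in these correlations was not tested. The Spearman correlation of TMM-normalized CPM, given as a description of values that share library and scaling, was highest between mt-Nd5 and mt-Nd6 (0.86) and between mt-Nd2 and mt-Nd4 (0.82), and lowest between mt-Nd1 and mt-Nd3 (0.15). mt-Nd5 and mt-Nd6 are the pair encoded on opposite strands with overlapping ends, and the part of this in their correlation was not tested. The biological coefficient of variation, the spread beyond counting error in the fit, was 0.712 for mt-Nd6, 0.635 for mt-Nd2, 0.565 for mt-Nd3, 0.517 for mt-Nd5, 0.486 for mt-Nd1, 0.443 for mt-Nd4 and 0.357 for mt-Nd4l, beside a median of 0.527 for all tested genes.

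The 5 genes outside the mitochondrial chromosome whose levels were most like the sum of the 7 members over the 17 libraries were Ncl (Spearman correlation 0.72), which encodes nucleolin, Nop56 (0.70), a protein of box C/D snoRNA particles, Snrpb (0.66), a core protein of spliceosomal snRNPs, Gm42031 (0.64) and Gm10800 (0.62). Their log2 fold changes in MG against AG lay between −0.31 and 0.64, and none was called. Of the other mitochondrial mRNAs, mt-Cytb (0.73) and mt-Co1 (0.71) were the most like the sum and mt-Atp8 (0.19) the least. These values describe the libraries and share their scaling.

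The nuclear-encoded part of complex I was below the range of the test. Of 36 subunit genes searched, 35 had at least 1 read, and they had 253 reads together over the 17 libraries, against 4401 for the 7 mitochondrial members. Ndufa2, an accessory subunit, had the most, 30 reads, followed by Ndufa3 with 19, and Ndufa6 was at 0. None of the 36 passed the expression filter. Of 14 complex I assembly factors 9 had any read, 20 reads in all, and of 9 genes for mitochondrial transcription and RNA stability 8 did, 47 reads in all with 14 of them from Twnk, the mitochondrial helicase; none of these was tested. The summed level of the 36 nuclear subunits was 46.7 to 195 CPM in MG, 63.2 to 188 in AG and 40.1 to 100 in GC, and the groups overlapped.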

How the data were processed

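cfRNA of mouse plasma was sequenced after preparation with a small RNA kit, which the labels say was used because the RNA was degraded. The authors mapped paired reads of 36 bases to mm10 in CLC Genomics Workbench. Deposited counts are unnormalized reads for each gene. The deposited RPKM column was scaled by the authors' software to gene length and to all mapped reads, and the TPM column the authors deposited was not used. The count column was 0 for 579 genes with RPKM above 0, among them mitochondrial rRNAs and tRNAs. For the mitochondrial genes, the reads recovered from RPKM were whole in 100% of values (tolerance 0.05), implying 1596032 to 9796884 mapped reads per library. Recovered reads entered shares and levels, not tests.

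The 7 members and all gene lists were chosen with earlier results of these data known. Named genes were the 7 members, the other mitochondrial mRNAs, and the 5 non-mitochondrial genes with the highest Spearman correlation with the members' sum; list members passing the looser criterion were named after their values were seen. Counts were fitted in R 4.3.3 with edgeR 4.0.16 (filterByExpr, TMM, quasi-likelihood test) over 272 genes, with a common biological coefficient of variation of 0.574. DESeq2 1.42.0, edgeR's exact test and limma 3.58.1 on log2(RPKM + 1) and log2(RPKM + 0.1) were alternatives, besides other scalings and filters, a replicate block and libraries left out. Ratios were compared by exact permutation tests in Python 3.11.15 with scipy 1.17.1. Transcript sequences and gene positions were taken from GENCODE M21 (GRCm38), and all 7 members matched. Labels give no sequencing batch. No libraries of 1 group agreed within sampling noise, with chi-square values of at least 5.46 per degree of freedom.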

Additional observations from a re-analysis of the deposited data

Results flagged for a closer look

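In all, 5 values stood apart from their own group by Dixon's test, among 36 groups tested, where chance alone gives about 1.8. mt-Nd1 was at 586 CPM in MG replicate 6, with the next MG library at 231, and at 251 CPM in GC replicate 4, with the next GC library at 113. mt-Nd4l was at 141 CPM in AG replicate 5 (next 61.2), and mt-Nd4 at 533 CPM in AG replicate 1 (next 326). The 7 mRNAs held 3.27% of mitochondrial reads in AG replicate 5, with the next AG library at 1.26%. MG replicate 6 and GC replicate 4 had the lowest TMM factors of their groups, 0.577 and 0.525. Over library totals with no TMM factor, mt-Nd1 was at 327 CPM in MG replicate 6, within the MG range of 111 to 414, and at 128 CPM in GC replicate 4, within the GC range of 93.8 to 165, so that neither library stood apart on that scale. By deposited RPKM they were at 19.4, the upper end of an MG range from 1.39, and at 4.80, within the GC range. AG replicate 5 had the fewest reads from mitochondrial genes, 3637.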

How the results depend on the processing

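Under every alternative run except scaling to the 13 mitochondrial mRNAs, the 7 fold changes of MG against AG kept their direction in 195 of 195 values. In MG against GC 12 of 196 and in AG against GC 8 of 195 reversed. mt-Nd3 had no value in the fits of 2 groups alone for MG against AG and AG against GC, where it did not pass the filter.

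For MG against AG, 0 members were called, and 6 with no TMM factor, 1 with DESeq2 and 0 to 1 with single libraries left out (1 without MG replicate 4). Members past the looser criterion were 2, then 7 with no TMM factor and 2 to 4 with a library left out. Over all tested genes 0 were called, then 58 with no TMM factor, 9 with DESeq2, 6 with all genes of at least 5 reads (819 past the looser criterion of 6270), 5 with edgeR's exact test, 1 in the fit of 2 groups, 2 without MG replicate 6 and GC replicate 4 (chosen after seeing the data), and 0 to 10 with 1 library left out. Genes past the looser criterion were 36, then 132 with no TMM factor, 20 with limma on log2(RPKM + 1) and 21 on log2(RPKM + 0.1). Scaled to the 13 mitochondrial mRNAs, mt-Nd3 was −0.27, mt-Nd5 −0.18 and mt-Nd6 −0.18.

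For MG against GC, members past the looser criterion were 2, then 1 with no TMM factor, 0 with genes of at least 5 reads, 0 with limma on either pseudocount, and 0 to 2 with a library left out. Over all genes 0 were called, then 10 with genes of at least 5 reads, 1 without MG replicate 6 and GC replicate 4, and 0 to 1 with 1 library left out; past the looser criterion were 12, then 854 with genes of at least 5 reads, 6 and 5 with limma (RPKM + 1, RPKM + 0.1), and 8 to 25 with 1 library left out (25 without GC replicate 4). mt-Nd2 was −0.27 and −0.56, mt-Nd3 −0.13 and −0.60, and mt-Nd6 −0.38 and −0.57 with the same limma fits, and mt-Nd5 −0.0265 with the latter. Scaled to the 13 mRNAs these were −0.39, −0.34, −0.27 and −0.0187 in that order. With 1 library left out mt-Nd2 ran from −0.41 to 0.61 and mt-Nd6 from −0.15 to 0.62.

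For AG against GC, members past the looser criterion were 0, then 3 with no TMM factor. Over all genes 4 were called, then 9 with no TMM factor, 8 with DESeq2, 7 with the exact test, 1 in the fit of 2 groups, 0 with genes of at least 5 reads, 0 with limma, 9 without MG replicate 6 and GC replicate 4, and 0 to 6 with 1 library left out; past the looser criterion were 32, then 113 with no TMM factor, 764 with genes of at least 5 reads, 50 and 49 with limma, and 20 to 46 with 1 left out. mt-Nd5 was 0.0236 without the 4 most abundant genes, 0.16 scaled to the 13 mRNAs, 0.19 without MG replicate 6 and GC replicate 4, and −0.23 to 0.19 with 1 left out, where mt-Nd3 ran from −0.56 to 0.0085.

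MG was above AG for mt-Nd1 in 35 of 36 pairs of libraries, 36 over library totals and 31 by RPKM, and for mt-Nd4l in 30, 35 and 31; above GC, in 24, 26 and 23 of 30 for mt-Nd1 and 30, 27 and 21 for mt-Nd4l (chosen after seeing the data).

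The ratio of mt-Nd1 and mt-Nd2 to the downstream members differed between MG and GC by 0.0130, by −0.11 with deposited RPKM and by −0.22 to 0.19 with 1 library left out. For mt-Nd6 over the other members, AG minus GC was −0.24, and −0.46 to 0.0207. The members' share was 0.790% (AG), 1.18% (MG) and 0.853% (GC) of counts without the 4 most abundant genes, 37.9%, 38.6% and 38.6% of the 13 mRNAs, and 0.00398%, 0.0103% and 0.00775% of mapped reads.

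Calls past the looser criterion were higher in the first group in 13 of 36 (MG against AG), 10 of 12 (MG against GC) and 17 of 32 (AG against GC); in 132 of 132, 11 of 12 and 4 of 113 with no TMM factor, in 15 of 20, 2 of 6 and 3 of 50 with limma on log2(RPKM + 1), in 0 of 35, 3 of 7 and 25 of 26 scaled to the 13 mRNAs, and in 24 of 31 for AG against GC without the 4 most abundant genes.

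The replicate numbers were shared across groups but were not taken to pair the libraries, since not every same-numbered pair had deviations correlated above 0.1. Of 16 pairs 7 did (range −0.45 to 0.57), including 4 of the 6 in MG against AG. In 5 of 16 a library was most alike to the same number, including 3 of the 6 in MG against AG. What the shared numbers stand for is not given and was not tested. Replicate 1 was correlated in all 3 comparisons, at 0.45, 0.57 and 0.47. With the replicate block, 3 genes were called in MG against AG, 0 members passed the looser criterion in MG against GC, and mt-Nd2 was −0.41 and mt-Nd6 −0.0766 there. The cause of these changes was not tested. Depth limits what can be seen: members had 0 to 225 reads per library.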
